A study of Mus musculus with 1 sample.

Results

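The 10 genes Xbp1, Atf4, Atf6, Ern1, Hspa5, Hsp90b1, Calr, Pdia4, Dnajb9 and Ddit3, which serve protein folding in the endoplasmic reticulum (ER) and the response to its overload, were taken by symbol from the 32285 genes of 1 single-cell RNA-seq library. All 10 were found, on 11 rows of the count matrix, because Ddit3 is the symbol of 2 rows. All are protein-coding, and on GRCm38 they lie as follows: Xbp1 at chr11:5520659-5525893 (plus strand), Atf4 at chr15:80255184-80257541 (plus strand), Atf6 at chr1:170704674-170867771 (minus strand), Ern1 at chr11:106394650-106487852 (minus strand), Hspa5 at chr2:34771970-34777547 (plus strand), Hsp90b1 at chr10:86690209-86705509 (minus strand), Calr at chr8:84841850-84846934 (minus strand), Pdia4 at chr6:47796141-47813430 (minus strand), Dnajb9 at chr12:44205559-44210326 (minus strand) and Ddit3 at chr10:127290774-127296288 (plus strand). The library (control_LK replicate 1) was made from lineage-negative, Kit-positive (Lin-cKit+, LK) cells of femora and tibiae, the immature part of the marrow, from blood stem cells to early precursors of several lineages. The mice were C57BL/6 and carried Brd9 fl/fl, floxed alleles of a subunit of a chromatin remodelling complex, with no Cre to delete them. They had been given 3 doses of pIpC, a double-stranded RNA that induces interferon, at 20 mg/kg, and were killed 8 weeks later. The series text places the injections 4 weeks after birth in primary mice, while the sample's own labels name a CD45.2+ donor and a CD45.1+ CD45.2- recipient of a marrow transplant, and which applies was not settled. The number of mice behind the library is not given in the sources used here. The library of deleted cells was not analysed here, so no comparison between genotypes was made.

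Proteins that a cell will secrete, or store in granules, are made at the ER and folded there by chaperones and disulfide enzymes. When unfolded protein accumulates, the sensors IRE1 (Ern1), ATF6 and PERK signal to the nucleus. IRE1 splices the Xbp1 message, ATF6 is cut to release a transcription factor, and PERK slows translation while ATF4 is made. XBP1 and ATF6 switch on folding genes, whereas ATF4 switches on amino acid and stress genes and Ddit3 (CHOP), a factor tied to cell death under lasting stress. Neutrophil and basophil precursors fill granules with proteases, and plasmacytoid dendritic cells and plasma cells secrete interferon and antibody, so all are known as secretory cells of the marrow.

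Of 8817 deposited barcodes, 7645 passed the study's limits on UMIs (distinct RNA molecules), genes and mitochondrial share, with 1592 to 49991 UMIs each. Cells were gated on the summed CPM of marker genes (1000 for Elane, Prss34, erythroid, monocyte, megakaryocyte and eosinophil markers, 300 for plasmacytoid, stem and lymphoid markers), and a gate is a range of marker level, not a proven cell type. The gates held 1326 Elane-gated cells (neutrophil elastase), 258 Prss34-gated cells (a basophil protease), 52 plasmacytoid-like cells, 938 stem-like cells and 1244 erythroid-like cells. A further 1030 cells passed both the Elane and the monocyte gate and were kept apart, 1247 passed no gate, and 355 passed several and were left out of the classes, of which 30.4% were doublet calls against 3.51% of all cells. Genes not used for gating were read as a check on the names. Mpo, another neutrophil granule gene, stood at 6696 counts per 1000000 UMIs (CPM) in Elane-gated and 139 in stem-like cells. Mcpt8, a basophil protease, stood at 14885 CPM in Prss34-gated and 16.2 in stem-like cells. Irf8 stood at 1847 CPM in plasmacytoid-like cells, Meis1 at 346.9 in stem-like cells and Epor at 94.8 in erythroid-like cells. The 7 plasmacytoid check genes, Irf8 among them, summed to 4987 CPM in plasmacytoid-like, but also to 2132 in lymphoid-like and 1991 in monocyte-like cells. The 6 stem check genes summed to 960 CPM in stem-like, 621 in plasma and 504 in megakaryocyte-like cells. The 7 erythroid check genes summed to 3742 CPM in erythroid-like and 166 in stem-like cells. The gates were not free of each other's genes. Prss34-gated cells also held Mpo at 2474 CPM and Ctsg at 4137, and Nkg7, listed as a T and NK cell gene, stood at 962.6 CPM in Elane-gated and 737.6 in Prss34-gated cells while Gzma had no UMI in either.

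Since the folding genes stood high together in the granule-making cells, their promoters are shown first. They come from RefSeq on GRCm38.p6, and run from 250 bases before to 50 bases after the start of the gene. Of the 10 genes, 9 had an entry, the one without being Atf6. The ER stress element (ERSE), which NF-Y and ATF6 are known to bind together, was searched as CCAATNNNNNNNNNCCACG, where N is any base, ERSE-II as ATTGGNCCACG, the unfolded protein response element as TGACGTGG and the amino acid response element as TGATGCAAT, each on both strands. An exact ERSE occurred in 39 of 32851 promoters (0.119%), and these included Hspa5, Hsp90b1 (2 copies) and Calr. With 1 mismatch allowed in the last 5 bases, 328 promoters (0.998%) held one, and Pdia4 and Ddit3 joined the list. In Pdia4 the difference was G5T and in Ddit3 C1G, counted from 1 at the first base of CCACG on the element's own strand. None of the 9 promoters held the other 3 elements, which occurred in 0.0365%, 0.676% and 0.192% of all promoters. A match of letters is a description and not a site, and no match says only that these letters are not in this window. The sequences below belong to the members with a match, at chr2:34771840-34772139 (plus strand), chr10:86705395-86705694 (minus strand), chr8:84846882-84847181 (minus strand), chr6:47813463-47813762 (minus strand) and chr10:127290543-127290842 (plus strand), and capitals mark both ends of each element. Elements on the opposite strand, among them those of Calr, Pdia4 and Ddit3, read there as the reverse complement, and Hsp90b1 holds a further copy with C4G:
Hspa5: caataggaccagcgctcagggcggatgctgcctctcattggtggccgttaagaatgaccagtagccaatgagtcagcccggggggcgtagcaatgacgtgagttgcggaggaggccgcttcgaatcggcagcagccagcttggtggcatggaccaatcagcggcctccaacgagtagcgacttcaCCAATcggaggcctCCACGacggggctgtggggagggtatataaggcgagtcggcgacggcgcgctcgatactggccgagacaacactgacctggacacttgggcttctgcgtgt
Hsp90b1: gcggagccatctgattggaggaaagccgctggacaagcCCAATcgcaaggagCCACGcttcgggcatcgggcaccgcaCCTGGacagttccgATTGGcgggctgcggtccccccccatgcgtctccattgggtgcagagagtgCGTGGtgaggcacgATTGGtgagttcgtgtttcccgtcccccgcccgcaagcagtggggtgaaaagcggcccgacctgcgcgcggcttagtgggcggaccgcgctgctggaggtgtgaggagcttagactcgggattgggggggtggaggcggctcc
Calr: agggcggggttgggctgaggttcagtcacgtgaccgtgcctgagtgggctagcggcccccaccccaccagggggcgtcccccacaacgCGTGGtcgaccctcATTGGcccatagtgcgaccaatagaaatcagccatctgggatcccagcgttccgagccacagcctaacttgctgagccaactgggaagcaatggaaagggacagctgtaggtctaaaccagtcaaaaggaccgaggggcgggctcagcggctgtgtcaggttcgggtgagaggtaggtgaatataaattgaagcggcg
Pdia4: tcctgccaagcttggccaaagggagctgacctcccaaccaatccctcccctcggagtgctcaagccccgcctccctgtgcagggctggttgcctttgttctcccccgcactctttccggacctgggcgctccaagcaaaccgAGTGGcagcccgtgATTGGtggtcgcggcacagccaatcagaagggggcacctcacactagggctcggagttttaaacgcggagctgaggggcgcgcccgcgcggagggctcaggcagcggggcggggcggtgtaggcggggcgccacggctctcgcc
Ddit3: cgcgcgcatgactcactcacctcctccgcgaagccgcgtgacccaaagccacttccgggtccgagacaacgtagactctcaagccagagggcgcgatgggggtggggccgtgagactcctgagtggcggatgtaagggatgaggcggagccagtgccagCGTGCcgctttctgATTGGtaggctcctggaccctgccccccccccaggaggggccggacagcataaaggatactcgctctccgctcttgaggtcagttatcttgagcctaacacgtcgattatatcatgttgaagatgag

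Among the 5 gates compared, the ER chaperones were highest in the granule-making cells. Hspa5 (BiP), the main ER chaperone of the HSP70 family, which also binds the sensors, stood at 1656 CPM in Prss34-gated cells (95% Poisson interval 1612 to 1700) and at 889.9 in Elane-gated cells (879 to 901). It stood at 412 CPM in plasmacytoid-like, 376 in erythroid-like and 370 in stem-like cells. Neither plasmacytoid-like nor erythroid-like cells differed from stem-like cells beyond counting error. All intervals here cover counting error only, since 1 library gives no spread between mice. CPM is a share of a cell's RNA: in mean UMIs per cell, Hspa5 was 20.9 in Prss34-gated, 20.2 in Elane-gated, 11.4 in erythroid-like, 5.63 in plasmacytoid-like and 3.81 in stem-like cells, so the low share of erythroid-like cells, which held a median of 32120 UMIs each against 8864 in stem-like cells, was not a low number of molecules.

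Hsp90b1 (GRP94), the ER member of the HSP90 family, also led in the Prss34 and Elane gates among these 5, while over all 11 gates plasma cells held the most. A gene model on its strand, Gm15344, shares 977 of its bases, so reads that both claim may be missing from its level. It stood at 1258 CPM in Prss34-gated, 722 in Elane-gated, 532 in plasmacytoid-like, 266 in erythroid-like and 251 in stem-like cells. Unlike Hspa5, it was higher in plasmacytoid-like than in stem-like cells, at 2.12-fold (interval 1.90 to 2.36). Calr, calreticulin, which holds sugar-bearing proteins during folding and stores calcium, stood at 2389 CPM in Prss34-gated, 1710 in Elane-gated, 559 in erythroid-like, 552 in stem-like and 466 in plasmacytoid-like cells. Its plasmacytoid-like level was 0.845 of the stem-like level (interval 0.754 to 0.944). Pdia4, a disulfide isomerase, stood at 206 CPM in Prss34-gated, 104 in Elane-gated, 47.8 in plasmacytoid-like, 42.7 in stem-like and 28.1 in erythroid-like cells. The plot of levels by gate shows this order, with the other 6 classes in grey.

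**Figure D1:**
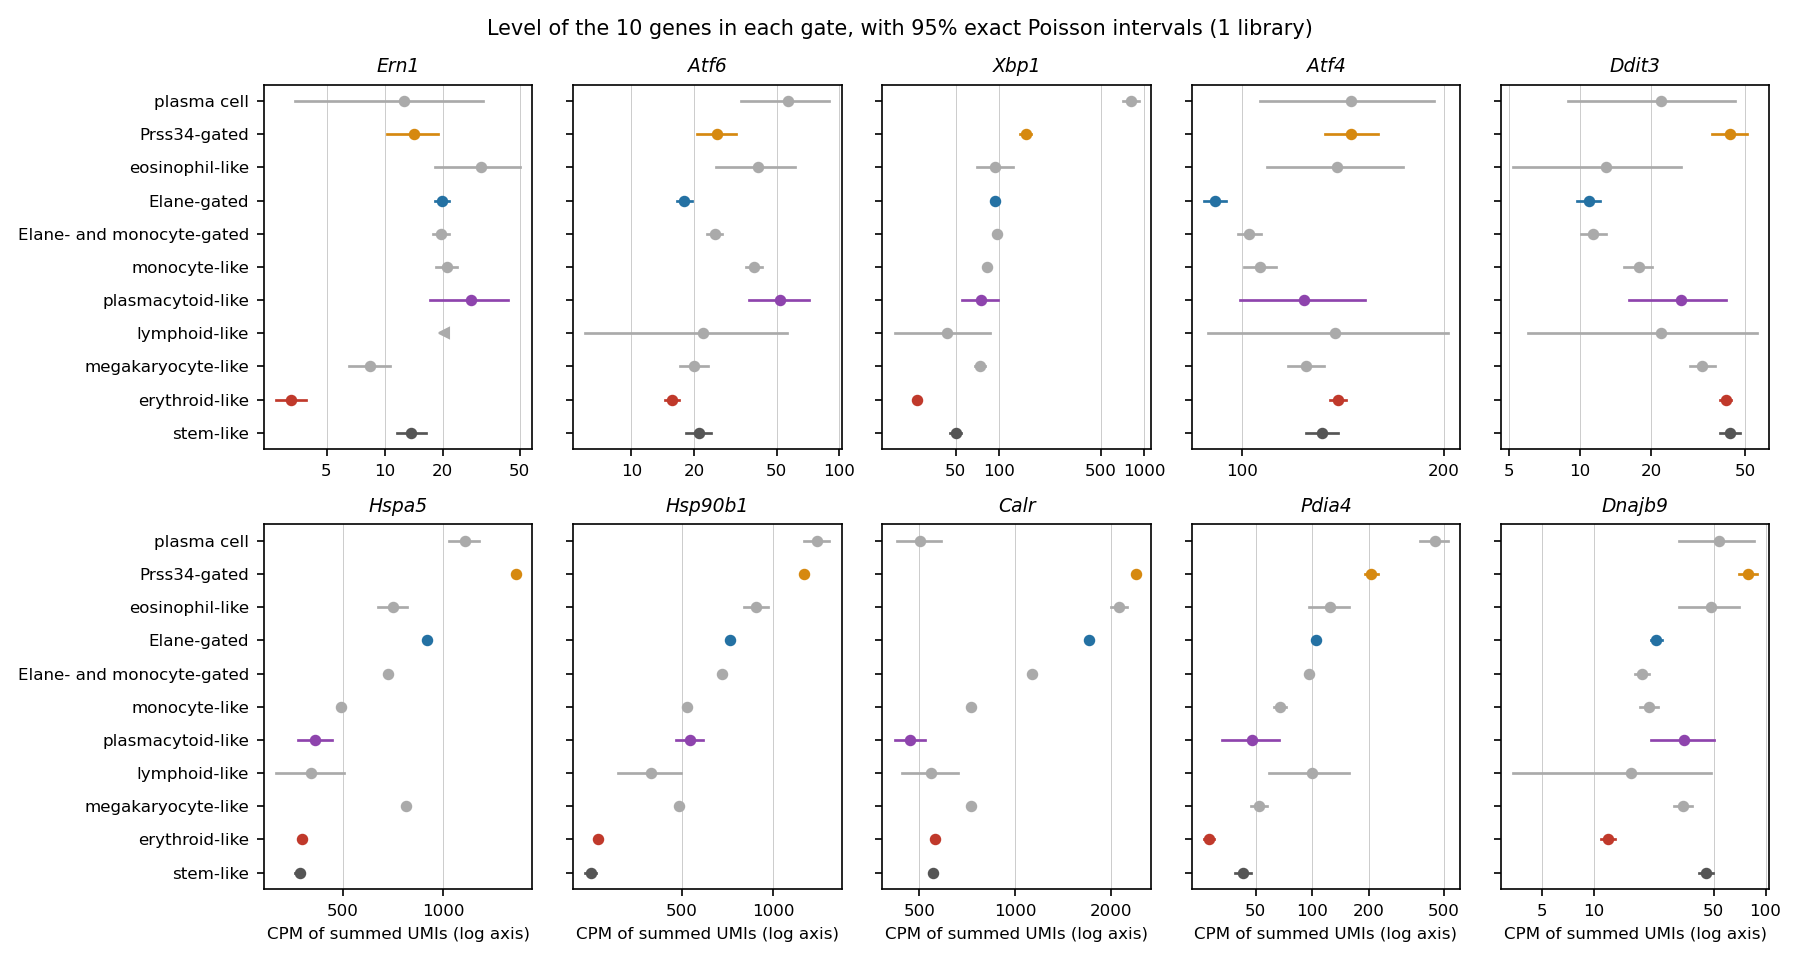
Level of each of the 10 genes in 11 gates, as CPM of summed UMIs on a log axis of its own; points are levels and lines 95% exact Poisson intervals, in 1 library. Hspa5, Calr and Dnajb9 were highest in Prss34-gated cells and Xbp1, Hsp90b1 and Pdia4 in the 18 plasma cells. For Dnajb9 the lead over plasma cells, 1.48-fold (interval 0.904 to 2.58), was within counting error. The triangle for Ern1 marks the upper interval limit of lymphoid-like cells, which had no UMI.

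Against stem-like cells, 5 of the 10 genes stood at 1.5-fold or higher in Elane-gated cells and 2 at 1.5-fold or lower, where 12.7% and 49.6% of 11637 genes did so. The ratios were 3.098 for Calr (interval 3.01 to 3.19), 2.87 for Hsp90b1 (2.75 to 3.00), 2.43 for Pdia4 (2.19 to 2.70), 2.40 for Hspa5 (2.32 to 2.49) and 1.86 for Xbp1 (1.69 to 2.06). The 2 lower genes were Dnajb9 at 0.513 (0.454 to 0.579) and Ddit3 at 0.251 (0.217 to 0.291), while Ern1 at 1.45 and Atf4 at 0.691 lay just inside the limits. The median ratio of the 10 genes was 1.66 and that of all genes 0.673. With 1 library there is no test across samples, and a ratio is called here only by its size.

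In Prss34-gated cells 6 of the 10 genes stood at 1.5-fold or higher and 0 at 1.5-fold or lower, against 12.2% and 37.8% of 10765 genes. The folding genes lay within a narrow range, with ratios of 5.003 for Hsp90b1 (interval 4.76 to 5.26), 4.81 for Pdia4 (4.25 to 5.46), 4.47 for Hspa5 (4.29 to 4.67) and 4.33 for Calr (4.18 to 4.48). Xbp1 stood at 3.05-fold (2.68 to 3.46) and Dnajb9 at 1.75-fold (1.496 to 2.05). The median ratio was 2.40, against 0.787 for all genes. Set directly against Elane-gated cells, Prss34-gated cells were lower in Ern1 alone, at 0.710 (interval 0.514 to 0.959). The other members ran from 1.397-fold for Calr to 3.96-fold for Ddit3, but the share of all genes that were higher is not given for this pair.

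**Figure D2:**
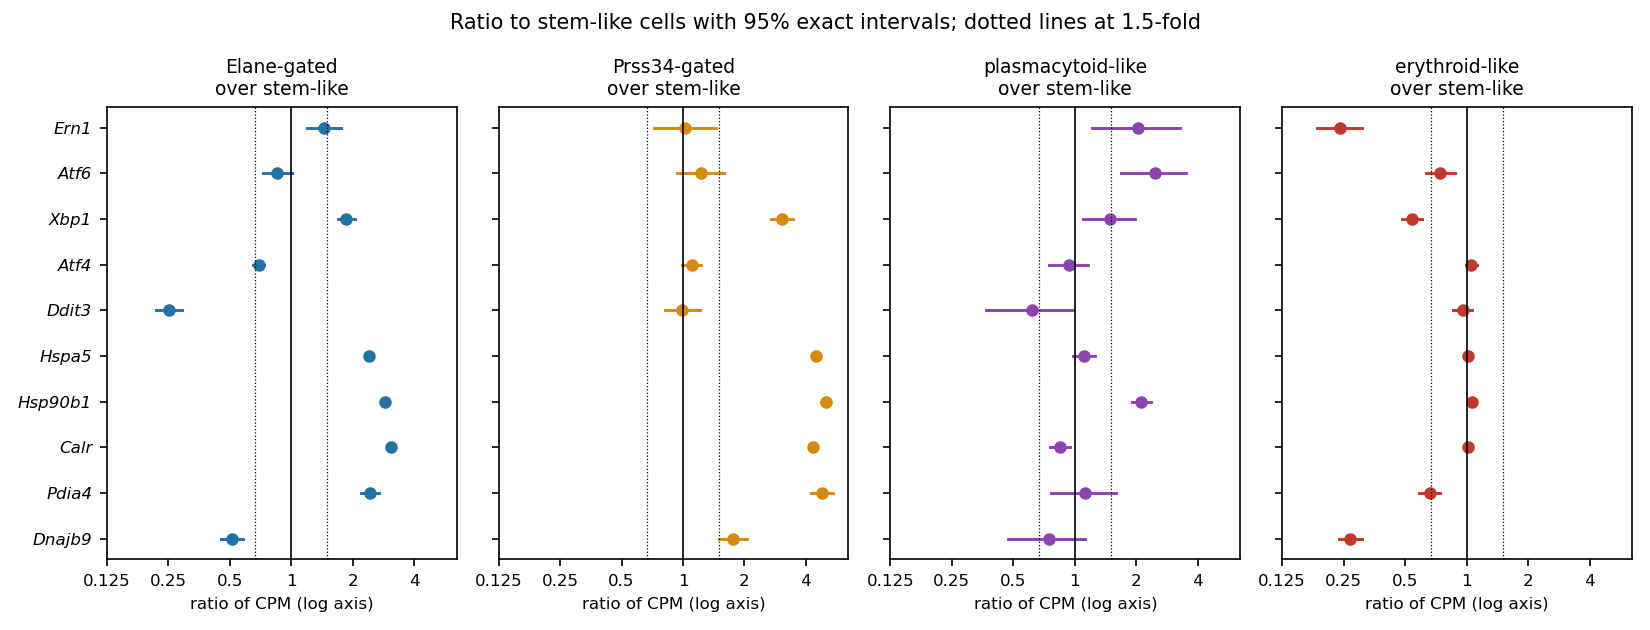
Ratio of the CPM of each gene in 4 gates to that in stem-like cells, on a log axis, with 95% exact intervals for counting error; dotted lines mark 1.5-fold in each direction. The 4 folding genes Hspa5, Hsp90b1, Calr and Pdia4 stood between 2.40 and 3.098 in Elane-gated cells and between 4.33 and 5.003 in Prss34-gated cells, and between 0.659 and 1.06 in erythroid-like cells.

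Of the sensors, Ern1 and Atf6 had another order of gates than the chaperones. Ern1, the gene of IRE1, stood at 28.1 CPM in plasmacytoid-like, 19.9 in Elane-gated, 14.1 in Prss34-gated, 13.8 in stem-like and 3.29 in erythroid-like cells. Its level in Prss34-gated cells was 1.03 times the stem-like level (interval 0.717 to 1.45), although these cells had the highest Hspa5. Atf6 stood at 52.0 CPM in plasmacytoid-like, 25.8 in Prss34-gated, 21.1 in stem-like, 18.0 in Elane-gated and 15.7 in erythroid-like cells, and Elane-gated cells did not differ from stem-like cells beyond counting error (0.853, interval 0.724 to 1.01). Eif2ak3, the gene of PERK, was not among the 10 genes but completes the sensors. It stood at 15.4 CPM in Prss34-gated, 7.03 in stem-like, 6.57 in Elane-gated, 5.62 in plasmacytoid-like and 5.15 in erythroid-like cells. In the Prss34 gate this was 2.18-fold over stem-like cells (interval 1.48 to 3.19), and in the plasmacytoid gate 0.799 (0.212 to 2.14). A count of transcripts does not show whether a sensor was active, and these 3' UMI counts cannot tell spliced from unspliced Xbp1.

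Xbp1, the transcription factor downstream of IRE1, was higher in Prss34-gated and Elane-gated than in stem-like cells, as the folding genes were. It stood at 153 CPM in Prss34-gated (interval 139 to 167), 93.4 in Elane-gated, 74.5 in plasmacytoid-like, 50.1 in stem-like and 27.0 in erythroid-like cells. In erythroid-like cells this was 0.539 of the stem-like level, where Hspa5 and Calr stood at 1.02 and 1.01. Across the 11 gates the log2 CPM of Xbp1 correlated with that of Pdia4 at r = 0.889, of Hsp90b1 at 0.854 and of Hspa5 at 0.739, but with Calr at 0.132. The gates share 1 library and differ widely in depth, and the plasma cells weigh heavily in Xbp1, so these values are descriptive. Atf4, the factor of the PERK branch, stayed within 1.5-fold of the stem-like level in all 4 gates, though Prss34-gated cells held 1.60 times the level of Elane-gated cells (interval 1.45 to 1.76). It stood at 146 CPM in Prss34-gated, 139 in erythroid-like, 132 in stem-like, 124 in plasmacytoid-like and 91.0 in Elane-gated cells. ATF4 is set largely at translation, which was not measured.

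Ddit3 and Dnajb9 divided the 2 granule-making gates. Ddit3 stood at 43.2 CPM in stem-like, 43.0 in Prss34-gated, 41.3 in erythroid-like, 26.7 in plasmacytoid-like and 10.9 in Elane-gated cells, the last being 0.251 of the stem-like level (interval 0.217 to 0.291). Dnajb9 (ERdj4), a co-chaperone of BiP, stood at 79.2 CPM in Prss34-gated, 45.2 in stem-like, 33.7 in plasmacytoid-like, 23.2 in Elane-gated and 12.2 in erythroid-like cells. All UMIs of Ddit3 lay on 1 of its 2 rows, with 4487 over all barcodes against 0, and both gene models share 2925 bases of the plus strand of chromosome 10, so reads that both models claim may be missing from its level.

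Taken as a sum, genes that respond to cell handling were high in stem-like and Prss34-gated cells and low in Elane-gated cells, as Ddit3 was. Erythroid-like cells had a low sum beside a Ddit3 level close to that of stem-like cells. The summed level of 10 such genes (Fos, Jun, heat shock genes and others) was 5085 CPM in stem-like and 5028 in Prss34-gated cells, but 1880 in plasmacytoid-like, 755 in erythroid-like and 601 in Elane-gated cells. Jun alone stood at 2029 CPM in stem-like, 1913 in Prss34-gated and 221.5 in Elane-gated cells, while the heat shock genes Hspa1a and Hspa1b stayed under 3 CPM in these 5 gates. Other heat shock genes of the list did not follow the sum. In erythroid-like cells Hsph1 stood at 101 CPM against 28.45 in stem-like cells, and Dnajb1 at 91.3 against 95.7. Of the 9 listed genes with enough UMIs, 2 were at 1.5-fold or higher there and 6 at 1.5-fold or lower, against 20.1% and 44.3% of all genes. Among cells under the median summed Fos and Jun level, a division made after the data were seen that left 111 stem-like, 1151 Elane-gated and 22 Prss34-gated cells, the 4 folding genes stood between 2.16-fold (Hsp90b1) and 3.08-fold (Calr) over stem-like cells in Elane-gated cells and between 4.63-fold (Hsp90b1) and 4.94-fold (Pdia4) in Prss34-gated cells. In the same cells Dnajb9 in Prss34-gated cells stood at 0.980, Xbp1 in Elane-gated cells at 1.48 and in plasmacytoid-like cells at 0.946. Atf4 stood there at 1.402-fold in Elane-gated cells, the opposite direction to 0.691 over all cells, at 2.04-fold in Prss34-gated and at 2.17-fold in erythroid-like cells. Ddit3 in Elane-gated cells stood at 0.279 there. These values describe the cells that were left, and the part of handling in the differences was not tested.

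Plasmacytoid-like cells had 3 of the 10 genes at 1.5-fold or higher over stem-like cells and 1 at 1.5-fold or lower, against 14.7% and 32.5% of 10516 genes. The 3 were both sensors of the 10 genes, Atf6 at 2.46-fold (interval 1.69 to 3.51) and Ern1 at 2.04-fold (1.21 to 3.28), and Hsp90b1. Hspa5 at 1.11-fold (0.984 to 1.25) and Pdia4 at 1.12-fold (0.764 to 1.59) did not differ from stem-like cells beyond counting error. Xbp1 stood just under the limit at 1.49-fold (1.10 to 1.98), and Ddit3 at 0.617 (0.368 to 0.976). These cells also held genes of other lineages. The 5 genes of the monocyte gate summed to 871 CPM in them against 37.9 in stem-like cells, and 6 lymphoid genes (4 with a UMI, led by Dntt at 743 CPM) to 916 against 15.7, while Pax5 had no UMI. The part of such cells in the Atf6, Ern1 and Hsp90b1 values was not tested. With 52 cells these rest on few molecules: 37 UMIs of Atf6 and 20 of Ern1. Monocyte-like cells held Atf6 at 38.9 CPM, and the plasmacytoid-like level was 1.34 times that (interval 0.930 to 1.87). For Ern1 the ratio to monocyte-like cells was 1.34 (0.803 to 2.11) and for Hsp90b1 1.03 (0.922 to 1.14). High levels of all 3 genes were thus shared with monocyte-like cells within counting error.

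Erythroid-like cells had 0 of the 10 genes at 1.5-fold or higher and 4 at 1.5-fold or lower, against 20.1% and 44.3% of 11639 genes. The 4 were Ern1 at 0.239 (interval 0.186 to 0.308), Dnajb9 at 0.270 (0.236 to 0.308), Xbp1 at 0.539 (0.483 to 0.602) and Pdia4 at 0.659 (0.588 to 0.740). Hspa5 at 1.02 (0.979 to 1.05) and Calr at 1.01 (0.982 to 1.04) were at the stem-like level to within a few percent, and Hsp90b1 stood at 1.06-fold. Pdia4 lay so near the limit that it left it under 4 of the alternatives, with ratios from 0.676 to 0.704.

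Within the granule-making cells, the genes were followed over the level of the granule protease itself. Cells of no gate held Hspa5 at 416 CPM where Elane was under 100 CPM and at 520 where it was between 100 and 1000. In Elane-gated cells, Hspa5 stood at 737 CPM in the 69 cells with 1000 to 2000 CPM of Elane, 838 at 2000 to 5000, 904 at 5000 to 10000, 920.4 at 10000 to 20000 and 883 in the 175 cells at 20000 or more. Hsp90b1 went from 535 to 744 CPM over the first 4 of these bins and stood at 726 in the last, and Pdia4 from 77.5 to 111 by 5000 to 10000 and then to 96.2. These 3 genes were higher at more Elane only up to about 10000 CPM and flat beyond it. Calr stood at 1872, 2039, 1965, 1556 and 1099 CPM in the same 5 bins. Xbp1 was the one gene that was higher in every next bin, from 71.4 CPM (interval 59.0 to 85.6) to 117 (106 to 130), although the intervals of neighbouring bins overlapped in part. Both patterns depended on which cells were counted. Between cells with 10000 CPM of Elane or more and those with 1000 to 2000, the ratio was 0.781 for Calr and 1.42 for Xbp1, but 1.20 and 1.10 when cells of several gates were counted in each, a setting added after the data were seen, and Hspa5 then stood at 1.46. Ern1 went from 25.9 to 12.6 CPM, Atf4 from 114 to 67.9 and Ddit3 from 22.2 to 6.29. Cells with more Elane were also further along the lineage by other genes: S100a8 stood at 3.69 CPM in the first bin and 3993 in the last, Cebpe at 57.9 and 276, and Gata2 at 60.3 and 0.944. Elane content and stage therefore cannot be told apart here.

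In Prss34-gated cells the range was wider. Hspa5 stood at 845 CPM in the 27 cells with 1000 to 5000 CPM of Prss34, 1606 at 5000 to 20000, 1795 at 20000 to 40000 and 1940 in the 73 cells at 40000 or more, a ratio of 2.29 between the last and the first. Pdia4 went from 123 CPM (interval 90.7 to 162) over 181 and 224 to 254 (220.1 to 292), and Hsp90b1 from 713 to 1397 in the third bin and 1324 in the last. Calr again peaked early, at 2793 CPM in the second bin, and stood at 1866 in the last. Xbp1 stood between 140.1 and 169 CPM, Ern1 between 11.6 and 20.0 and Dnajb9 between 68.1 and 87.2, and the intervals of their first and last bins overlapped. With the granule genes left out of the total, Hspa5 stood at 859 CPM in the first bin and 2129 in the last.

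**Figure D3:**
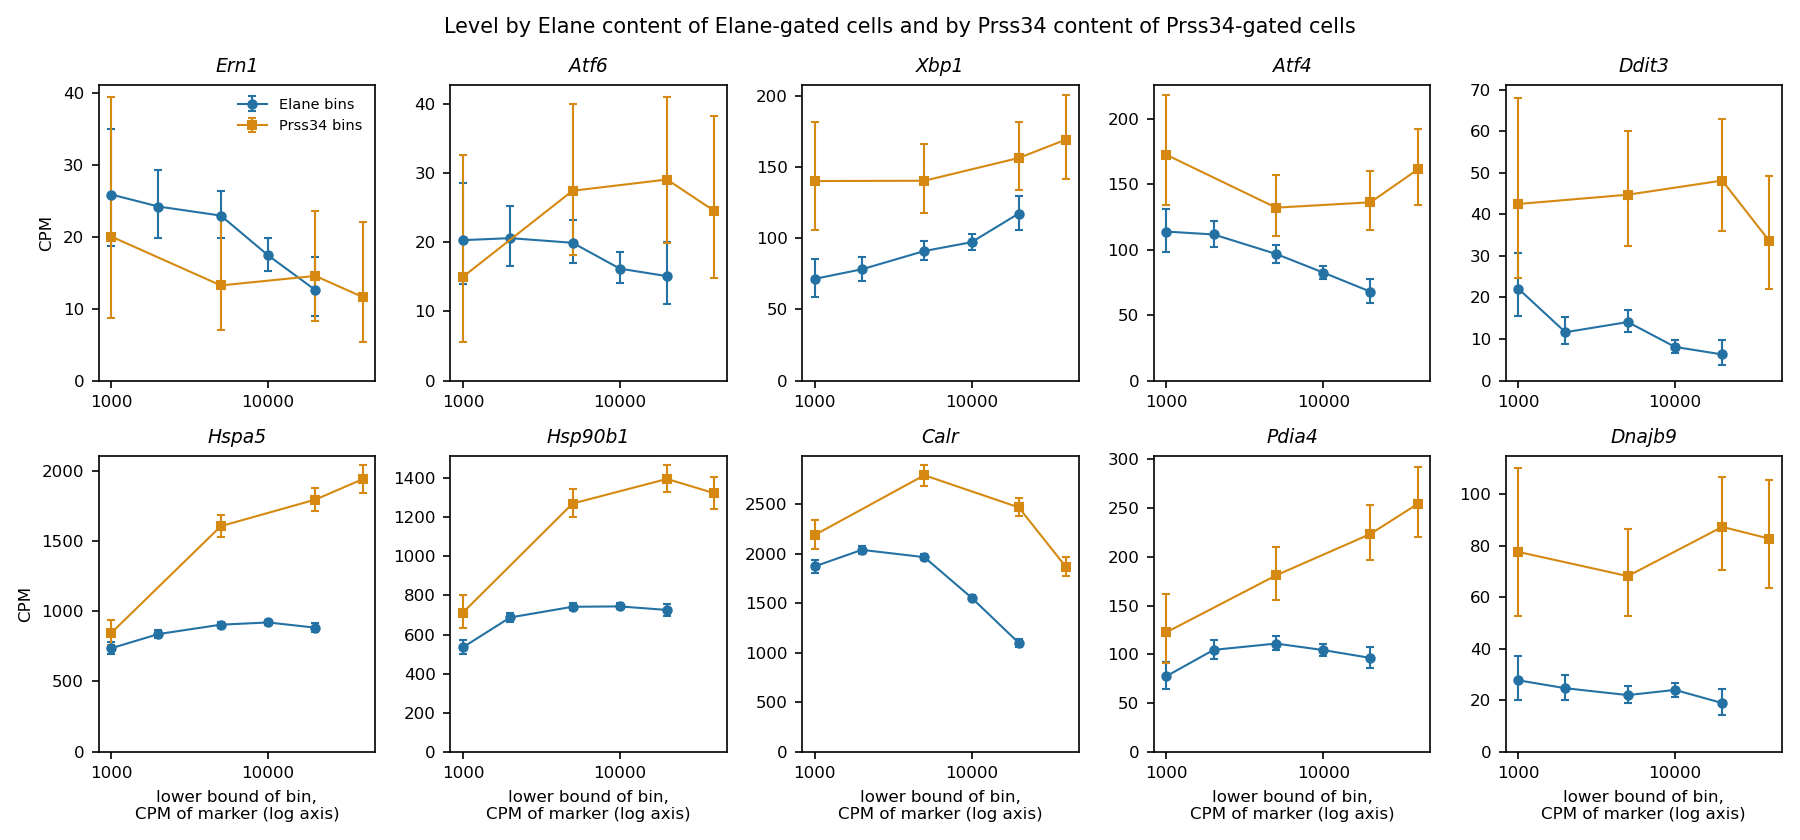
CPM of each gene in bins of Elane-gated cells by their Elane level (circles) and of Prss34-gated cells by their Prss34 level (squares), placed on a log axis at the lower bound of the bin; bars are 95% exact Poisson intervals. Hspa5 went from 845 to 1940 CPM over the Prss34 bins, while Calr peaked at 2039 CPM in the second Elane bin and stood at 1099 in the last.

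Hspa5 was detected in most cells of the granule-making gates, and Pdia4 and Xbp1 in a larger share of them than of stem-like or erythroid-like cells. After each cell was thinned to 5000 UMIs, which left out 2 Elane-gated, 3 Prss34-gated, 13 stem-like and 7 erythroid-like cells, Hspa5 had a UMI in 97.4% of Elane-gated, 98.0% of Prss34-gated, 86.5% of plasmacytoid-like, 78.4% of erythroid-like and 75.4% of stem-like cells. Before thinning these shares were 99.8%, 99.6%, 94.2%, 96.95% and 86.2%. Pdia4 had one in 40.3% of Elane-gated, 58.8% of Prss34-gated, 18.2% of stem-like and 12.05% of erythroid-like thinned cells (86.6%, 83.3%, 33.7% and 52.9% unthinned). Xbp1 had one in 38.1%, 51.0%, 22.5% and 14.4% of the same thinned gates (85.8%, 79.1%, 38.3% and 50.9% unthinned). The median cell held 847 CPM of Hspa5 in the Elane gate (quartiles 659 and 1073) and 1340 in the Prss34 gate (873 and 2129), against 276 in the stem-like gate (129 and 481). Ddit3 was the sparsest of the 10 genes in Elane-gated cells, but not in Prss34-gated cells, where Ern1 had a UMI in 9.41% and Atf6 in 15.7% of thinned cells (17.1% and 28.7% unthinned). Ddit3 had a UMI in 4.76% of thinned Elane-gated and 18.8% of thinned Prss34-gated cells (19.8% and 38.4% unthinned), against 20.7% of thinned stem-like cells (34.0% unthinned). No gate here is known to lack these genes, so the level that free RNA would give could not be read from them. As a guide to it, Igkc, which plasma cells hold at 443264 CPM, stood between 12.1 and 18.3 CPM in the 5 gates compared.

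The wider pathway was described with 91 further genes in 7 lists, drawn up by known role. Of 88 with at least 50 UMIs, 45 stood at 1.5-fold or higher in Elane-gated over stem-like cells and 14 at 1.5-fold or lower. Over all genes these shares were 12.7% and 49.6%. In Prss34-gated cells it was 53 and 10 of 86 (12.2% and 37.8% of all genes). In plasmacytoid-like cells it was 27 and 12 of 86 (14.7% and 32.5% of all genes), and in erythroid-like cells 16 and 19 of 88 (20.1% and 44.3%). The higher count in erythroid-like cells was thus near the share over all genes. Genes that bring proteins into the ER and cut off their signal peptides were mostly higher in both granule-making gates, with 11 of 14 at 1.5-fold or higher in each. So were those that add and check sugars, with 9 and 11 of 12. Of all genes, 12.7% in Elane-gated and 12.2% in Prss34-gated cells were at 1.5-fold or higher. Genes of ER-associated degradation, which return misfolded proteins to the proteasome, divided the gates: 4 of 14 in Elane-gated and 10 of 14 in Prss34-gated cells stood at 1.5-fold or higher, and the median ratios were 1.11 and 2.15. Of the targets of ATF4 and CHOP, 4 of 15 were higher and 7 lower in Elane-gated cells and 2 of 13 higher and 5 lower in Prss34-gated cells, where 49.6% and 37.8% of all genes were lower, so the lower counts were near the share over all genes.

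By name, Sdf2l1, a stress-induced partner of ER co-chaperones, stood at 307 CPM in Elane-gated, 335 in Prss34-gated, 104 in plasmacytoid-like and 29.8 in stem-like cells. Edem3, which trims the sugars of misfolded proteins, stood at 190.3 CPM in Prss34-gated but 7.87 in Elane-gated and 9.41 in stem-like cells, a ratio of 20.2 over stem-like cells (interval 16.2 to 25.5), and its relative Edem1 at 79.8, 37.9 and 11.9 CPM. P4hb, a disulfide isomerase, and Fkbp11, a prolyl isomerase, stood at 4.35-fold and 4.22-fold over stem-like cells in Elane-gated cells. In erythroid-like cells the highest were Asns, asparagine synthetase, at 228 CPM or 11.4-fold (9.86 to 13.2), Mthfd2, a mitochondrial folate enzyme, at 7.17-fold and Erp29 at 2.50-fold. Mthfd2 at 7.10-fold and Erp29 at 3.24-fold also led in plasmacytoid-like cells beside Sdf2l1 at 3.49-fold. Nupr1 and Trib3 had the lowest ratios in every comparison. Nupr1, a stress-induced nuclear protein, stood at 264 CPM in stem-like cells and at 3.62, 2.76, 1.41 and 2.10 CPM in the Elane-gated, Prss34-gated, plasmacytoid-like and erythroid-like cells. Trib3, an inhibitor of ATF4 signalling, stood at 9.31 CPM in stem-like and 0.232 in Elane-gated cells, and had 0 of 711784 UMIs in plasmacytoid-like cells, where 3 UMIs would give 4.21 CPM. The remaining genes at the low end were Atf3 at 0.0688 of the stem-like level in Elane-gated cells, Prdx4 at 0.119 in Prss34-gated, Fkbp11 at 0.0475 in plasmacytoid-like and Ddit4 at 0.105 in erythroid-like cells.

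**Figure D4:**
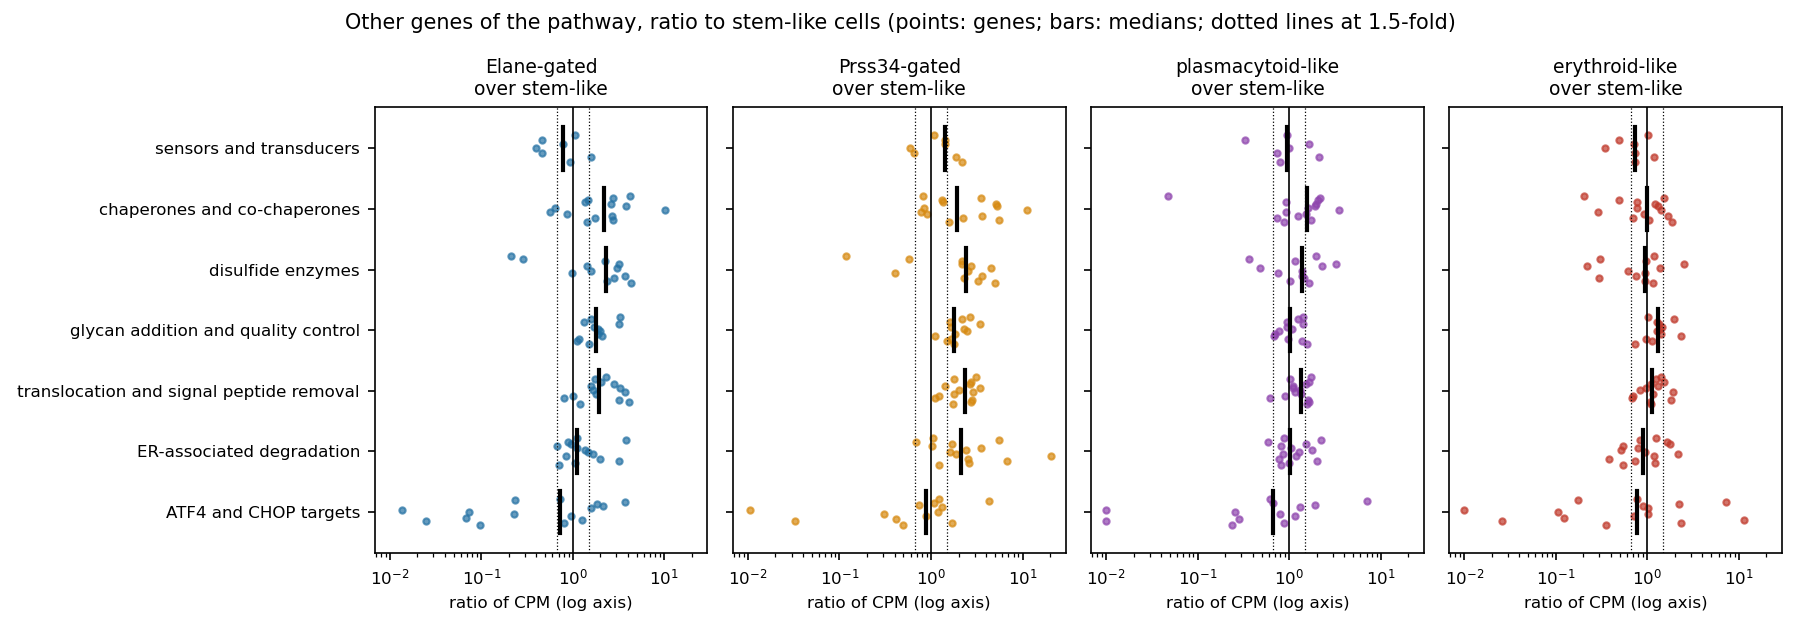
Ratio to stem-like cells, on a log axis, of the other genes of the pathway with at least 50 UMIs in both gates together; each point is a gene, bars are medians, dotted lines mark 1.5-fold, and ratios under 0.01 are drawn at 0.01. The medians of the disulfide list were 2.33 in Elane-gated and 2.42 in Prss34-gated cells and 0.952 in erythroid-like cells, and those of the ATF4 and CHOP targets (0.730, 0.878, 0.669 and 0.770 in panel order) lay near the medians of all genes (0.673, 0.787, 0.882 and 0.771).

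Of 74 of these genes with a RefSeq promoter, 6 held the exact ERSE shown above: Canx, Creld2, Derl3, Dnajc3, Pdia6 and Syvn1. Over stem-like cells they stood in Prss34-gated cells at 1.58, 5.15, 23.7, 2.23, 3.58 and 2.62-fold. Derl3 had 32 UMIs there and 4 in stem-like cells (interval 8.42 to 92.4), too few to be called, and the other 5 were at 1.5-fold or higher, as were 53 of 86 pathway genes and 12.2% of all genes. In Elane-gated cells the ratios were 1.41, 2.59, 1.69, 1.75, 3.70 and 1.05. In erythroid-like cells they were 1.88, 1.22, 0.128, 0.690, 0.757 and 1.22, with Derl3 again on a handful of UMIs.

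The plasma cells of the library, 18 cells with immunoglobulin genes at 10000 CPM or more, gave a yardstick for a professional secretory cell. Xbp1 stood there at 811 CPM (interval 715 to 916), 16.2 times the stem-like level, Pdia4 at 445, Hsp90b1 at 1391, Hspa5 at 1158 and Calr at 502. Immunoglobulin genes took 59.8% of their UMIs, and with these left out of the total the levels were 2016, 1106, 3460, 2879 and 1247 CPM. On the plain scale Prss34-gated cells exceeded plasma cells in Hspa5 and Calr, at 0.699 (0.627 to 0.777) and 0.210 (0.178 to 0.246) for plasma over Prss34-gated cells, and were far below them in Xbp1, where that ratio was 5.31 (4.55 to 6.19). Without immunoglobulin the plasma cell level of Hspa5 was the higher, while Calr and Xbp1 kept their direction on both scales. Among the remaining gates, the 39 eosinophil-like cells (Prg2, Epx, Prg3) held Calr at 2119 CPM and Hsp90b1 at 878 with Ddit3 at 12.9, and the 454 megakaryocyte-like cells held Hspa5 at 769.9 CPM, or 2.08 times the stem-like level, with Pdia4 at only 1.21-fold.

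Outside the 10 genes and the gating markers, the genes whose log2 CPM over the 11 gates was most like the mean of Hspa5, Hsp90b1, Calr and Pdia4, among 10131 genes with at least 500 UMIs, included Manf (r = 0.966), Selenos (0.940), Ssr4 (0.935) and Spcs2 (0.921). Manf, a secreted ER-resident factor, stood at 728 CPM in Prss34-gated, 524 in Elane-gated, 181 in erythroid-like and 138 in stem-like cells. Ssr4, part of the complex beside the ER translocon, stood at 1301, 1244, 371 and 382 CPM in the same gates. The gates share 1 library, and some hold few cells, so these likenesses are a description.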

How the data were processed

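The authors counted UMIs per gene and cell barcode with Cell Ranger 6.0.2 on mm10 from a 10x Chromium 3' library and deposited the raw counts. The labels' extract protocol describes a bulk RNA kit, whereas the matrix holds single-cell UMIs. From these counts, cells were kept by the study's limits, namely UMIs between 1000 and 50000, detected genes between 1000 and 6500 and a mitochondrial share below 7%. UMIs were summed per gate and given as CPM with exact Poisson intervals, and ratios with exact conditional binomial intervals, at 95%. With 1 library no test was made, and a gene counted as called past 1.5-fold with at least 50 UMIs in both gates together. Shares of cells were read after thinning to 5000 UMIs. Scrublet (scanpy 1.11.5, expected rate 6%) called 268 cells, which were kept. Python 3.11.15, numpy 2.4.6, scipy 1.17.1, pandas 2.3.3 and matplotlib 3.10.9 were used, and the ratios were tested on simulated data. Genes were annotated from GENCODE M21. The genes, lists, thresholds of the gates and their order of precedence were chosen with earlier results of these data known. Named pathway genes were the 3 highest and 3 lowest ratios of each comparison, and the other pathway genes given by name were chosen after their values were seen. The alternatives were other gate thresholds, summed granule genes as gates, cells of several gates, doublets, cell filters, denominators, weights, thinning and another reference. Also added after the data were seen were cells under the median Fos and Jun level, Elane-gated cells counted with those that pass the monocyte gate, and other settings for the granule bins. Some genes of the lists are not reported here.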

Additional observations from a re-analysis of the deposited data

How the results depend on the processing

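The 4 comparisons with stem-like cells gave 40 ratios, of which 21 were past 1.5-fold. None of these calls was lost with 0.5 times the gate thresholds, without the doublet calls, under the stricter cell filter, with other genes in the denominator or after thinning. At 2 times the thresholds 2 were lost, with summed granule genes as gates 3, with cells of several gates counted in each 1, with every deposited barcode 1, with the mean of cell CPM 1, with all other cells as reference 4, and among cells under the median Fos and Jun level 2. With all other cells as reference, the members at 1.5-fold or lower numbered 1 in Elane-gated and 8 in erythroid-like cells (2 and 4 against stem-like cells), those at 1.5-fold or higher in erythroid-like cells numbered 1 (0 against stem-like cells), and Ddit3 in plasmacytoid-like cells stood at 1.01, a change that follows from the other reference. The share of all genes past 1.5-fold is not given for the alternatives, so counts of members under them cannot be weighed against it. After thinning, 2 members were 1.5-fold or lower in plasmacytoid-like cells (1 otherwise), and the cause was not tested. With summed granule genes as gates, Hspa5 in Prss34-gated cells stood at 0.910, because all 258 Prss34-gated cells also passed the widened Elane gate and the class then held 19 other cells. Under the median Fos and Jun level, Dnajb9 in Prss34-gated cells stood at 0.980 on 22 cells and 1 member was 1.5-fold or higher in erythroid-like cells. The cause was not tested. No paired analysis was possible because there was 1 library, and for the same reason no replicate could be left out. Depth limits Ern1, Atf6 and Ddit3 in plasmacytoid-like cells, and the spread between mice is not known. With cells of several gates counted in each, the ratio of Calr between cells of high and low Elane turned from 0.781 to 1.20; the cause was not tested.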
